A study of Mus musculus with 28 samples.

Results

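The genes described here are 10 endoplasmic reticulum (ER) chaperone and stress-response genes, Hspa5, Hsp90b1, Hyou1, Dnajb9, Sdf2l1, Pdia4, Herpud1, Xbp1, Creld2 and Manf. They were taken by symbol from a count table of 54429 genes, and all 10 were present and passed the filter on low counts in every comparison. Polyadenylated RNA of O9-1 cells was sequenced. O9-1 is an established mouse cell line with the properties of cranial neural crest, the cells that form much of the facial skeleton in the embryo. The study asked how such cells differentiate at low oxygen. The 28 libraries form 8 groups, 4 at 21% O2 (normoxic, 4 libraries each) and 4 at 0.5% O2 (hypoxic, 3 libraries each). Proliferating cells were kept in feeder-conditioned medium with 15% serum, 25 ng/ml bFGF and 5 ng/ml LIF. Osteoblast cultures were held for 10 days in medium with 10% serum, 10 mM beta-glycerophosphate, 0.1 µM dexamethasone and 100 ng/ml BMP-2. Chondrocyte cultures spent 3 days in that osteoblast medium and then 7 days as micromasses on matrigel, in medium with 5% serum, insulin-transferrin-selenium, 0.1 µM dexamethasone, 10 ng/ml TGF-beta3 and 50 ng/ml BMP-2. Smooth muscle cultures spent 3 days in medium with 10% serum and no added growth factor. All groups therefore share 1 cell line, and cultures of different kinds differ in medium, format and days as well as in lineage. The labels do not say whether the libraries of a group came from separate cultures, so the p-values below measure the spread between libraries, which may be technical.

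Secretory and membrane proteins fold in the ER, where chaperones bind unfinished chains and disulfide isomerases join their cysteines. When unfolded proteins accumulate, the sensors ATF6, IRE1 (gene Ern1) and PERK (gene Eif2ak3) start the unfolded protein response. ATF6 is cut in the Golgi to free a transcription factor, IRE1 splices the Xbp1 mRNA so that it encodes an active factor, and PERK slows translation and favours that of ATF4. Cartilage and bone cells, which secrete large amounts of collagen, are known for a high ER load. A gene-level count joins spliced and unspliced Xbp1 mRNA, so it does not report on IRE1 activity. An mRNA level does not measure chaperone protein either.

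The libraries held 19869271 to 64693346 counts, and the 10 genes together took 0.0882% to 0.445% of the counts of a library. The libraries of 1 group, and 1 library of another, stood apart. In the 3 hypoxic smooth muscle libraries the mitochondrial ribosomal RNAs took 11.6% to 13.3% of the counts, against at most 0.0889% in the other 25 libraries, and their scaling factors of 0.518 to 0.545 lay below the 0.896 to 1.26 of the others. Their smooth muscle markers (Acta2, Tagln, Cnn1 and Myh11) summed to 27.8 to 40.9 scaled counts-per-million (CPM), against 3432 to 3844 CPM in normoxic smooth muscle cultures and 46.7 to 51.1 CPM in normoxic proliferating cells, so the labelled cell type was not borne out by its defining markers there. Acta2 was at 20.3 ± 7.92 CPM (SD, n = 3). Normoxic osteoblast replicate 4 also differed from replicates 1 to 3 of its group: its 5 chondrocyte markers summed to 2936 CPM against 1826 to 1865 CPM, its 5 osteoblast markers to 148 CPM against 63.5 to 73.7 CPM and its 4 smooth muscle markers to 4749 CPM against 3103 to 3253 CPM. Of the osteoblast markers, Bglap was under 1 CPM on average in both osteoblast groups, and Alpl, Ibsp, Runx2 and Sp7 were at 1 CPM or more. Together the 5 summed to 367.5 to 398.2 CPM in hypoxic osteoblast and 784.5 to 2533 CPM in chondrocyte cultures. They summed to 57.2 to 64.8 CPM in normoxic proliferating cells and 68.4 to 82.2 CPM in normoxic smooth muscle cultures. Normoxic osteoblast replicates 1 to 3 overlapped both of these ranges, so the sum did not set them apart. Chondrocyte markers summed to 7171 to 14120 CPM in normoxic and 5425 to 5775 CPM in hypoxic chondrocyte cultures. The 3 adipocyte, 3 epithelial and 3 endothelial markers summed to at most 11.6 CPM in any library, and the 4 blood markers to at most 5.9 CPM outside hypoxic smooth muscle cultures and to 32.5 to 36.6 CPM in them, carried by Cd68. The part of these differences in the results below was not tested. The 6 hypoxia-response markers summed to 1220 to 2470 CPM in the hypoxic libraries and to 128 to 800.0 CPM in the normoxic ones. The normoxic sums were 509 to 800.0 CPM in chondrocyte and 397 to 512 CPM in osteoblast cultures. In normoxic proliferating cells they were 152 to 160 CPM and in normoxic smooth muscle cultures 128 to 138.5 CPM. Hypoxic chondrocyte cultures held 1805 to 1929 CPM and hypoxic proliferating cells 1893 to 2030 CPM.

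Several of these genes are known targets of ATF6 and XBP1, which act through the ER stress response element ERSE, so their promoters were searched for it. RefSeq windows (GRCm38.p6, 250 bases before to 50 bases after the transcription start) were found for 8 of the 10 genes, those other than Hyou1 and Manf. The ERSE letters, CCAAT and CCACG with any 9 bases between them, on either strand, were in 3 of the 8 (Hspa5, Hsp90b1 and Creld2) and in 39 of all 32851 windows (0.119%). Those of ERSE-II, ATTGG and CCACG with any 1 base between them, were in 1 of the 8 (Herpud1) and in 12 windows (0.0365%). The XBP1 element UPRE, TGACGTGG, was in 0 of the 8 and in 222 windows (0.676%). A match describes the letters only and is not a measured binding site. The matching stretches are shown because the 4 genes that hold them moved differently at low oxygen, as described below. Each is written 5′ to 3′ on the strand of its gene, with the matched element in capitals, and lies before the RefSeq transcription start. GENCODE M21 starts Hspa5 farther upstream, so that the Hspa5 stretch lies inside the gene span given at the end; the other 3 lie outside theirs.
Hspa5 (chr2:34772020-34772049, plus strand): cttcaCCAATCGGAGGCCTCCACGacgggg
Hsp90b1 (chr10:86705510-86705686, minus strand): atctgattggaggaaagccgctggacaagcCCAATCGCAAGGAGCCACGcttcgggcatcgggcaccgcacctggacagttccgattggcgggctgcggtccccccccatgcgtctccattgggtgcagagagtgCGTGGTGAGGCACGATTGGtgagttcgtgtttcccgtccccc
Creld2 (chr15:88819490-88819568, plus strand): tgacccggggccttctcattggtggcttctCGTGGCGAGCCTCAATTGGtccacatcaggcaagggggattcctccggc
Herpud1 (chr8:94386347-94386417, plus strand): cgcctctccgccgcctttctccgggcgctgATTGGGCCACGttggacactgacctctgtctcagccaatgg
In Hspa5 the element lies 65 to 47 bases before the RefSeq start. In Hsp90b1 there are 2, at 212 to 194 bases and, in the opposite orientation, at 107 to 89 bases. In Creld2 it is in the opposite orientation at 126 to 108 bases, and in Herpud1 it is at 52 to 42 bases.

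By group means, the level of the 10 genes was highest in hypoxic chondrocyte cultures and lowest in smooth muscle cultures. Summed over the genes, it was 3792 ± 179 CPM (SD, n = 3) in hypoxic and 2939 ± 234 CPM (n = 4) in normoxic chondrocyte cultures. In proliferating cells it was 2919 ± 211 CPM (n = 3) at 0.5% O2 and 2088 ± 137 CPM (n = 4) at 21% O2. In osteoblast cultures the order by oxygen was the other way, with 1909 ± 74.6 CPM (n = 3) hypoxic and 2770 ± 830.2 CPM (n = 4) normoxic, where replicate 4 held 4014 CPM and replicates 1 to 3 held 2399, 2324 and 2342 CPM. Smooth muscle cultures held 1814 ± 96.4 CPM (n = 3) hypoxic and 1756 ± 161 CPM (n = 4) normoxic. Hypoxic osteoblast libraries (1841 to 1989 CPM) overlapped the hypoxic (1703 to 1878 CPM) and normoxic (1652 to 1994 CPM) smooth muscle libraries. Most of the summed level is Hspa5 and Hsp90b1. The highest and lowest group means differed 2.16-fold, and 3.57-fold with library size alone, where hypoxic smooth muscle cultures were lowest. With DESeq2 size factors hypoxic osteoblast cultures (1885 CPM) lay below hypoxic smooth muscle cultures (2067 CPM) and above normoxic ones (1732 CPM). CPM here are counts scaled by the trimmed mean of M values over all 28 libraries. In bulk RNA, fewer cells of a type and less RNA per cell cannot be told apart.

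**Figure D1:**
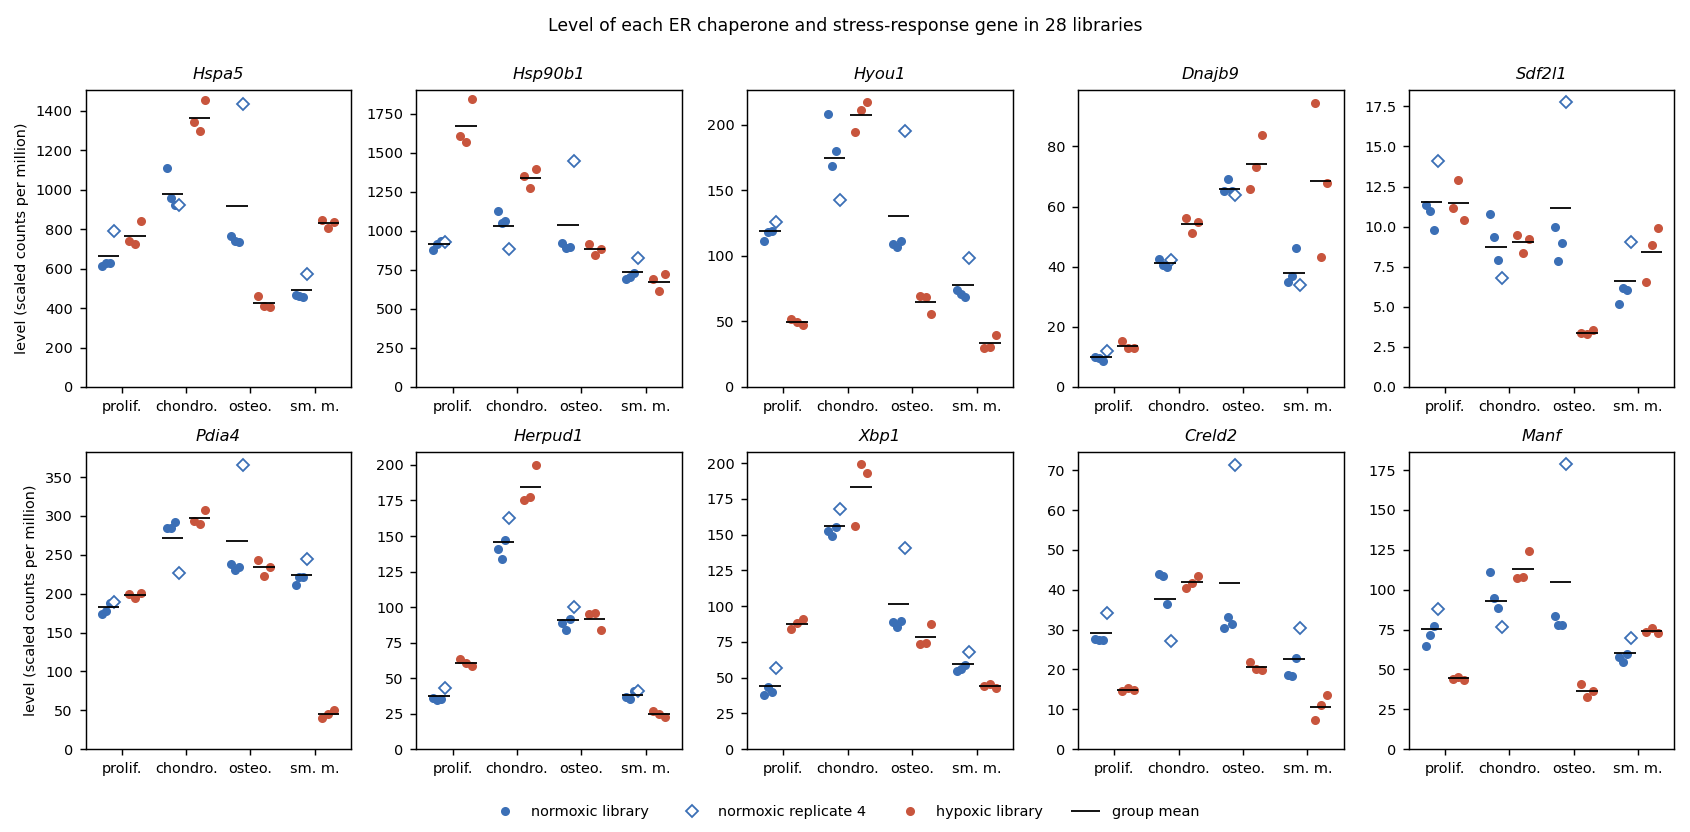
Level of each of the 10 genes, in counts-per-million (CPM) scaled over all 28 libraries (linear axis from 0), in proliferating cells and in chondrocyte, osteoblast and smooth muscle (sm. m.) cultures. Filled points are libraries, open diamonds are normoxic replicate 4 and lines are group means. Hsp90b1 is highest in hypoxic proliferating cells (mean 1672 CPM), Dnajb9 is lowest in both proliferating groups, and the diamond of normoxic osteoblast replicate 4 stands above its group in 9 of 10 panels.

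Compared per length of annotated exons, Hspa5 and Hsp90b1 had the highest means of the set in every group. In hypoxic osteoblast cultures the libraries of Hspa5 (95.9 to 109 CPM per kilobase) and Pdia4 (92.95 to 102 CPM per kilobase) overlapped. Hspa5 encodes BiP, the main Hsp70 chaperone of the ER, which also holds the sensors inactive. Its mean level per kilobase ranged from 100.5 CPM in hypoxic osteoblast to 322 CPM in hypoxic chondrocyte cultures. Hsp90b1 encodes GRP94, the Hsp90 chaperone of the ER, and ranged from 167 CPM per kilobase in hypoxic smooth muscle cultures to 415 CPM per kilobase in hypoxic proliferating cells. Sdf2l1, whose product works with BiP and ER J proteins, stayed between 3.06 and 10.4 CPM per kilobase, and Dnajb9 (ERdj4, a J protein that regulates BiP at IRE1) between 3.93 and 29.1.

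The genes differed in how far they varied over the 8 groups. The ratio of the highest to the lowest group mean was 7.48 for Herpud1, a membrane protein of ER-associated degradation, and 7.41 for Dnajb9. It was 6.54 for Pdia4 (ERp72, a disulfide isomerase), 6.22 for Hyou1 (GRP170, a large chaperone and exchange factor of BiP), 4.15 for Xbp1, 3.92 for Creld2 and 3.41 for Sdf2l1. Hspa5 varied 3.21-fold, Manf 3.09-fold and Hsp90b1 2.48-fold. Creld2 and Manf encode small proteins of the ER that can be secreted, the latter with known cell-protective activity. The highest mean was in hypoxic chondrocyte cultures for 7 of the 10 genes, the exceptions being Hsp90b1 (hypoxic proliferating), Dnajb9 (hypoxic osteoblast) and Sdf2l1 (normoxic proliferating). The lowest mean was in hypoxic smooth muscle cultures for 6 genes, in hypoxic osteoblast cultures for Hspa5, Sdf2l1 and Manf, and in normoxic proliferating cells for Dnajb9. Neighbours in the order often overlapped. The hypoxic chondrocyte libraries overlapped those of the next group for Hyou1, Pdia4, Xbp1, Creld2 and Manf. For Hspa5 their range (1297 to 1453 CPM) held normoxic osteoblast replicate 4 (1433 CPM). In Sdf2l1 the libraries of all neighbouring groups overlapped except those of hypoxic osteoblast and normoxic smooth muscle cultures, and in Herpud1 only 2 of 7 neighbouring pairs did, the normoxic proliferating and smooth muscle pair and the osteoblast pair.

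The first question was how the genes differed between 0.5% and 21% O2 in proliferating cells, where 4 rose, 3 fell and 3 were not called. A gene was called when its adjusted p was under 0.05 in edgeR's quasi-likelihood test, with Benjamini-Hochberg adjustment over all genes tested. Of all genes tested here, 65.4% were called (33.1% higher and 32.3% lower), so 7 of 10 is near the background. The median log2 fold change of the 10 genes was 0.16 and that of all genes was 0.01.

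Hsp90b1 had 880, 917, 933 and 928 CPM at 21% O2 and 1606, 1568 and 1840 CPM at 0.5% O2. The groups lay far apart, and Hsp90b1 rose 1.82-fold (log2 fold change 0.86 ± 0.06 SE, edgeR adjusted p = 1.22e-08). Xbp1 had 37.7, 43.1, 39.96 and 57.1 CPM against 83.8, 88.1 and 90.8 CPM, without overlap, and rose by 0.97 ± 0.13 on the log2 scale (edgeR adjusted p = 8.86e-05). Herpud1 rose by 0.70 ± 0.08 and Dnajb9 by 0.45 ± 0.12, from 10.0 to 13.7 CPM on average.

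Hyou1 fell. It had 111, 119, 119 and 126 CPM at 21% O2 and 51.8, 49.3 and 47.0 CPM at 0.5% O2, a 2.41-fold fall (log2 fold change -1.27 ± 0.06 SE, edgeR adjusted p = 3.85e-10). Creld2 had 27.5, 27.5, 27.5 and 34.0 CPM against 14.6, 15.3 and 14.9 CPM. Manf had 64.9, 71.7, 77.5 and 88.1 CPM against 44.2, 45.5 and 43.3 CPM. The hypoxic libraries of both genes were close together and below all normoxic ones, and the log2 fold changes were -0.97 ± 0.09 for Creld2 and -0.77 ± 0.09 for Manf. Hsp90b1 and Creld2, whose promoters both hold an ERSE match, moved in opposite directions in the same cells. Whether the element acts on either gene here was not tested.

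Hspa5 had 612, 628, 626 and 791 CPM at 21% O2 and 737, 722 and 842 CPM at 0.5% O2. Only replicate 4 of the normoxic libraries reached the hypoxic range, and the gene was not called (log2 fold change 0.20 ± 0.09, edgeR adjusted p = 0.0835). Without normoxic replicate 4 it was called (0.28 ± 0.05, edgeR adjusted p = 1.55e-05), as was Pdia4 (0.11 ± 0.04, edgeR adjusted p = 0.0175, against 0.0566 with it). Sdf2l1 had 9.81 to 14.1 CPM in normoxic and 10.4 to 12.9 CPM in hypoxic libraries, which overlapped.

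**Figure D2:**
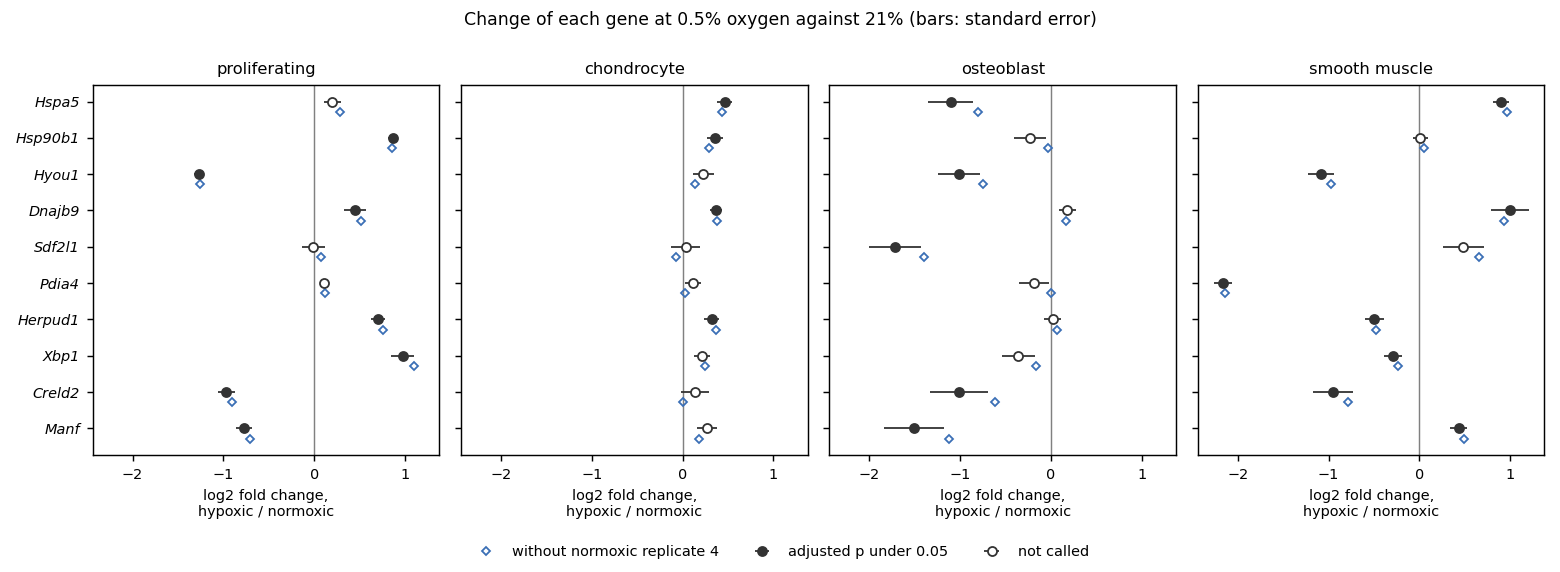
Log2 fold change of each gene at 0.5% against 21% O2 in the 4 kinds of culture, from edgeR, with standard errors; filled points passed an adjusted p under 0.05 and open diamonds are the values with normoxic replicate 4 left out. Hyou1 and Creld2 lie left of 0 in proliferating, osteoblast and smooth muscle cultures, and all 10 genes lie right of 0 in chondrocyte cultures with all libraries, where Sdf2l1 is at -0.05 with library size alone.

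In chondrocyte cultures the 10 genes differed little with oxygen, and those called were all higher at 0.5% O2. In this comparison 4 of 10 were called, against 22.2% of all genes (10.4% higher and 11.8% lower). Of all genes called, 46.9% were higher, and 31.8% with library size alone as the scaling. All 10 log2 fold changes were above 0, from 0.03 for Sdf2l1 to 0.46 for Hspa5, with a median of 0.25 beside -0.01 for all genes. The value of Sdf2l1 was -0.05 with library size alone and -0.07 without normoxic replicate 4.

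Hspa5 had 1107, 956, 922 and 923 CPM in normoxic and 1341, 1297 and 1453 CPM in hypoxic chondrocyte cultures, without overlap. It rose 1.38-fold (log2 fold change 0.46 ± 0.08 SE, edgeR adjusted p = 0.00231). Dnajb9 had 42.5, 40.6, 39.9 and 42.2 CPM against 56.1, 51.2 and 54.9 CPM and rose by 0.37 ± 0.07. The other 2 called genes were Hsp90b1 (0.36 ± 0.09) and Herpud1 (0.32 ± 0.08), again with separate libraries. Hyou1, Creld2 and Manf, which fell in hypoxic proliferating cells, were at 0.23 ± 0.11, 0.14 ± 0.15 and 0.27 ± 0.11 and were not called. In chondrocyte cultures the count of called genes ranged from 2, without hypoxic replicate 3, to 6 when a library was left out. The chondrocyte markers differed between these groups too, as given above, with Col2a1 at 3490 ± 2312 CPM (SD, n = 4) normoxic and 276 ± 91.8 CPM (SD, n = 3) hypoxic.

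In osteoblast cultures 5 of the 10 genes were lower at 0.5% O2 and 0 were higher, against 54.3% of all genes called (27% higher and 27.3% lower). Of all genes called, 49.6% were higher, and 36.9% with library size alone. The median of the 10 genes' log2 fold change was -0.69, beside -0.03 for all genes. DESeq2 and limma-voom also called 5, but the share of all genes called by them is not given here, so this count is not read further. The osteoblast markers differed between these groups too, as given above.

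Hspa5 had 765, 739, 735 and 1433 CPM in normoxic and 461, 409 and 405 CPM in hypoxic osteoblast cultures. The groups did not overlap, with or without replicate 4, and the fall was 2.15-fold (log2 fold change -1.11 ± 0.25 SE, edgeR adjusted p = 0.00541). Sdf2l1 had 9.96, 7.83, 8.98 and 17.8 CPM against 3.35, 3.28 and 3.53 CPM. It fell 3.28-fold (-1.71 ± 0.29, edgeR adjusted p = 0.000939), the largest change of the set in this comparison.

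Manf had 83.6, 78.1, 77.9 and 179.0 CPM in normoxic and 40.8, 32.5 and 36.7 CPM in hypoxic osteoblast cultures and fell by 1.51 ± 0.33 on the log2 scale. Hyou1 had 109, 107, 111 and 195 CPM against 69.2, 69.0 and 55.6 CPM and fell by 1.01 ± 0.23. Creld2 had 30.4, 33.2, 31.4 and 71.3 CPM against 21.9, 19.99 and 19.87 CPM and also fell by 1.01 ± 0.32. In each of these genes the hypoxic libraries were below all normoxic ones, and replicate 4 held the highest normoxic value.

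Without normoxic replicate 4 the same 5 genes were called, against 65.6% of all genes. The falls were smaller: -0.81 for Hspa5, -1.39 for Sdf2l1, -1.12 for Manf, -0.75 for Hyou1 and -0.62 for Creld2. The other 5 genes were not called with or without it. Herpud1 and Xbp1, higher in hypoxic proliferating cells, were at 0.02 ± 0.09 and -0.36 ± 0.18 here.

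**Figure D3:**
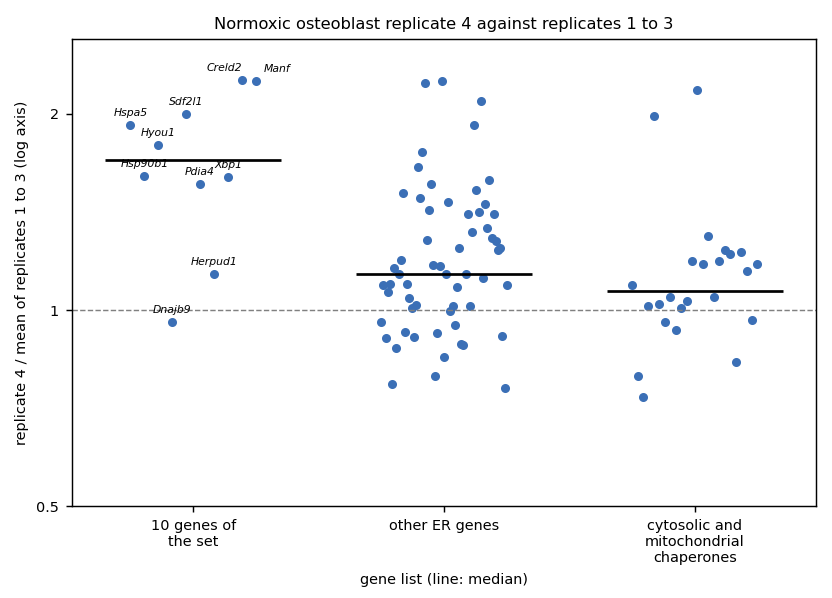
Level in normoxic osteoblast replicate 4 divided by the mean of replicates 1 to 3 (log axis), for the 10 genes, 59 other ER genes and 24 cytosolic and mitochondrial chaperones; lines are medians. Above 1 lie 9 of the 10 genes, up to 2.25 for Creld2, with a median ratio of 1.70. The medians of the other lists are 1.14 and 1.07, and the share of all genes above 1 was not determined.

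The plot of replicate 4 over the mean of replicates 1 to 3 shows how the single library differed. Replicates 1 to 3 were close to each other, and replicate 4 was above all of them in 9 of the 10 genes, in 41 of 59 other ER genes and in 16 of 24 cytosolic and mitochondrial chaperones. The ratio was 2.24 for Manf, 1.92 for Hspa5 and 1.79 for Hyou1, and only Dnajb9, at 0.96, was below 1. Normoxic replicate 4 also held the highest value of 9 of the 10 genes among proliferating and among smooth muscle libraries, but of 2 of 10 among chondrocyte libraries, where it was lowest in 6. The share of all genes in which replicate 4 was highest was not determined, so these counts are not read as particular to the set. Over all genes, the chi-square per gene between pairs of libraries was 91.1 to 97.05 for pairs with osteoblast replicate 4 and 2.89 to 3.88 for the other pairs of that group. It was 18.3 to 22.3 against 5.18 to 5.83 in proliferating cells and 14 to 20.2 against 6.10 to 7.94 in smooth muscle cultures, but overlapped in chondrocyte cultures (27.8 to 36.5 against 8.58 to 30.5). Hypoxic groups have no replicate 4, so this difference enters each hypoxic against normoxic comparison through the normoxic libraries alone. The labels do not say whether replicate 4 was prepared or sequenced with the others.

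In smooth muscle cultures 3 genes were higher and 5 lower at 0.5% O2, against 75.6% of all genes called (35.4% higher and 40.2% lower), so 8 of 10 is near the background. The median was -0.14 for the 10 genes and -0.12 for all genes. Some of these directions rest on the scaling. With library size alone, all genes tested had a median of -1.49, and 15.6% of the genes called were higher, against 46.8%. Then Hspa5, Manf, Dnajb9, Sdf2l1 and Hsp90b1 changed sign, as given beside each.

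Pdia4 had 211, 221, 221 and 244 CPM in normoxic and 39.9, 45.5 and 50.9 CPM in hypoxic smooth muscle cultures. It was the lowest level of the gene in any group, a 4.49-fold fall (log2 fold change -2.17 ± 0.10 SE, edgeR adjusted p = 4.22e-11). Hyou1 had 74.3, 71.2, 68.5 and 98.3 CPM against 29.8, 30.7 and 39.7 CPM and fell by 1.09 ± 0.14. Creld2 (-0.95 ± 0.22), Herpud1 (-0.50 ± 0.11) and Xbp1 (-0.29 ± 0.10) fell as well, each with separate libraries. All 5 falls kept their sign under every scaling that was run.

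Hspa5 had 467, 463, 458 and 572 CPM in normoxic and 845, 806 and 838 CPM in hypoxic smooth muscle cultures. It rose by 0.90 ± 0.08 (edgeR adjusted p = 1.4e-07), but was -0.47 with library size alone (edgeR adjusted p = 0.000128). Manf rose by 0.43 ± 0.09, and was -0.94 with library size alone. Dnajb9 had 34.8, 36.8, 46.2 and 34.0 CPM against 94.5, 43.3 and 67.9 CPM. Its libraries overlapped, and the rise of 1.00 ± 0.21 became -0.37 with library size alone. Without normoxic replicate 4 Sdf2l1 was called as well (0.66 ± 0.22, edgeR adjusted p = 0.0194). With all libraries Sdf2l1 (0.49 ± 0.23) and Hsp90b1 (0.01 ± 0.08) were not called and were at -0.89 and -1.36 with library size alone. The ratio between genes within a library does not depend on the scaling: Hspa5 and Pdia4, at 490 and 224 CPM on average in normoxic cultures, were at 829.5 and 45.4 CPM in hypoxic ones.

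Over these 4 comparisons no gene was called in the same direction in all. Dnajb9 was called higher in 3, Hyou1 and Creld2 were called lower in 3, and Hspa5 was called higher in 2 and lower in 1; in smooth muscle cultures the rises of Dnajb9 and Hspa5 changed sign with library size alone. The normoxic and hypoxic libraries of each kind of culture enter only 1 of the 4, so these comparisons share no sample.

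The second question was how the genes differed between each differentiation culture and proliferating cells at the same oxygen level. The 3 comparisons at one oxygen level share their proliferating libraries. Dnajb9 was the only gene of the set called higher in all 6, from 3.72-fold in normoxic smooth muscle to 6.53-fold in normoxic osteoblast cultures. The size of its 5.67-fold rise in hypoxic smooth muscle cultures depends on the scaling. The median log2 fold change of all genes in that comparison was -0.07, and -1.35 with library size alone. Dnajb9 had 8.66 to 11.8 CPM in normoxic and 12.8 to 15.4 CPM in hypoxic proliferating libraries, below every library of the differentiation cultures (34.0 to 94.5 CPM).

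In normoxic chondrocyte cultures 9 of 10 genes were higher than in proliferating cells and 1 lower, against 74.9% of all genes called (37.7% higher and 37.2% lower). The median was 0.59, beside 0.00 for all genes. Herpud1 had 141, 134, 147 and 163 CPM against 36.2, 34.5, 35.6 and 42.9 CPM in proliferating cells and rose 4.00-fold (log2 fold change 2.00 ± 0.08 SE, edgeR adjusted p = 8.51e-10). Xbp1 rose 3.59-fold (1.84 ± 0.11). Hspa5 (0.59 ± 0.09), Hyou1 (0.59 ± 0.10) and Pdia4 (0.60 ± 0.08) rose by similar amounts. Sdf2l1 fell by 0.37 ± 0.15 with overlapping libraries, and was not called without replicate 4 (edgeR adjusted p = 0.259). Between 6 and 9 of the 10 genes were called when 1 library was left out. The count was 6 without proliferating replicate 1 or 2 or chondrocyte replicate 2. With library size alone Hsp90b1 was at -0.14 and Manf at -0.02, from 0.20 and 0.33, the median of all genes was -0.35, and 34.7% of all called genes were higher, against 50.3%.

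At 0.5% O2 chondrocyte cultures showed 8 higher and 2 lower genes, against 69.5% of all genes called (34.9% higher and 34.6% lower), with a median of 1.21 beside -0.02 for all genes. Hyou1 had 194, 211 and 217 CPM against 51.8, 49.3 and 47.0 CPM and rose 4.21-fold (2.07 ± 0.07, edgeR adjusted p = 1.61e-11). Creld2 rose 2.81-fold and Manf 2.56-fold. Hsp90b1 fell by 0.32 ± 0.07, from the highest level of any group. With library size alone 31.8% of all called genes were higher, against 50.2%.

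**Figure D4:**
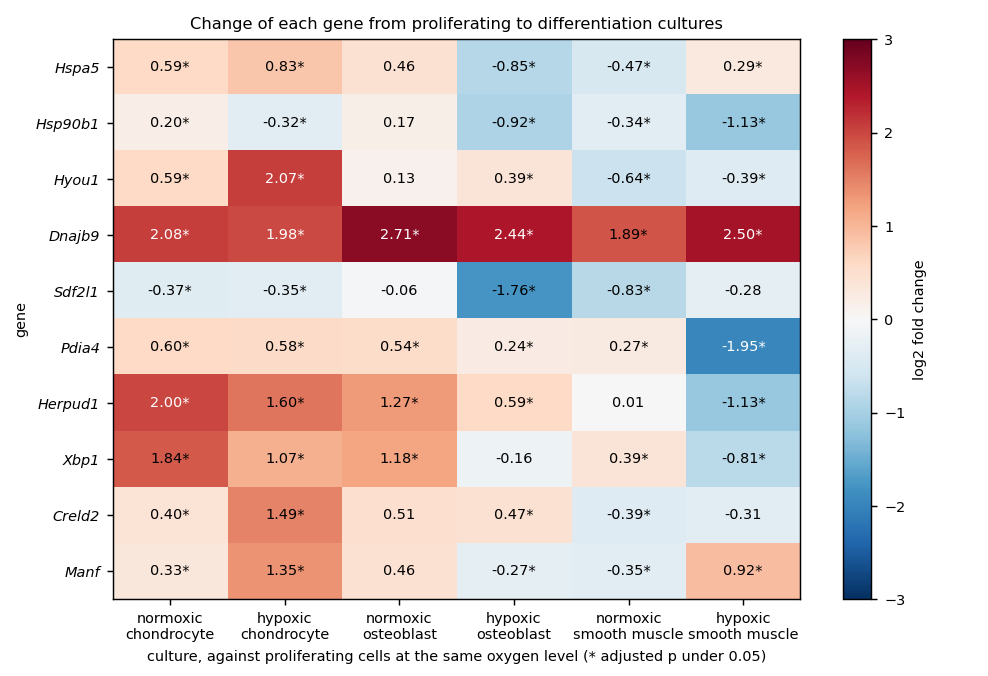
Log2 fold change of each gene in the 6 differentiation cultures against proliferating cells at the same oxygen level (colour and numbers, edgeR), with stars where the adjusted p was under 0.05. Dnajb9 is between 1.89 and 2.71 in all columns, and Pdia4 is above 0 in 5 columns and at -1.95 in hypoxic smooth muscle cultures.

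In osteoblast cultures the picture depended on oxygen and, at 21% O2, on whether normoxic replicate 4 was left out of both groups. At 21% O2, 4 genes were called, all higher, against 78.7% of all genes called (40.9% higher and 37.8% lower): Dnajb9 (2.71 ± 0.09), Herpud1 (1.27 ± 0.09), Xbp1 (1.18 ± 0.19) and Pdia4 (0.54 ± 0.15). Without normoxic replicate 4 in both groups all 10 were called, 7 higher and 3 lower, against 85.1% of all genes. The values were then 0.21 for Hspa5, 0.12 for Manf and 0.15 for Creld2, against 0.46, 0.46 and 0.51 with all libraries. Hyou1 went from 0.13 to -0.14, Hsp90b1 from 0.17 to -0.06 and Sdf2l1 from -0.06 to -0.31. At 0.5% O2, 5 genes were higher and 4 lower, against 71.3% of all genes called (36.2% higher and 35.1% lower). Of all genes called, 50.8% were higher, and 38.2% with library size alone. Sdf2l1 fell by 1.76 ± 0.15, Hsp90b1 by 0.92 ± 0.07 and Hspa5 by 0.85 ± 0.08, and the rises were led by Dnajb9 (2.44 ± 0.11) and Herpud1 (0.59 ± 0.08). With 1 fit of all 28 libraries these 5 were called and Hyou1, Pdia4, Creld2 and Manf were not.

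In normoxic smooth muscle cultures 3 genes were higher and 6 lower than in proliferating cells, against 79.7% of all genes called (40.8% higher and 38.9% lower). Dnajb9 (1.89 ± 0.11), Xbp1 (0.39 ± 0.12) and Pdia4 (0.27 ± 0.06) rose. The chaperones Hspa5 (-0.47 ± 0.09), Hsp90b1 (-0.34 ± 0.06) and Hyou1 (-0.64 ± 0.10) fell, as did Sdf2l1, Creld2 and Manf. Hypoxic smooth muscle cultures had 3 higher and 5 lower genes, against 70% of all genes called (33.8% higher and 36.2% lower), with Pdia4 at -1.95 ± 0.09, Hsp90b1 at -1.13 ± 0.09 and Herpud1 at -1.13 ± 0.10. Manf rose there by 0.92 ± 0.08 and Hspa5 by 0.29 ± 0.08, with -0.36 and -0.99 when scaled by library size alone, where 15.0% of all called genes were higher against 48.3%.

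Whether the oxygen difference itself differed between a differentiation culture and proliferating cells was tested with an interaction term. A positive value means that hypoxic minus normoxic was larger in the culture. For chondrocyte cultures 6 of 10 genes were called, against 43.5% of all genes (21.6% positive and 21.9% negative). Hyou1 (1.52 ± 0.13 SE, edgeR adjusted p = 7.64e-08), Creld2 (1.12 ± 0.18) and Manf (1.06 ± 0.16) were positive, and Xbp1 (-0.75 ± 0.16), Hsp90b1 (-0.49 ± 0.11) and Herpud1 (-0.37 ± 0.11) were negative. Each value subtracts the change in proliferating cells, so a gene that moved there and little in chondrocyte cultures takes the opposite sign by construction.

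For osteoblast cultures 5 of 10 were called, all negative, against 54.2% of all genes (28.9% positive and 25.3% negative): Sdf2l1 (-1.66 ± 0.33), Xbp1 (-1.29 ± 0.24), Hspa5 (-1.27 ± 0.29), Hsp90b1 (-1.06 ± 0.20) and Herpud1 (-0.64 ± 0.12). Without normoxic replicate 4 in both groups 9 were called, against 62.3% of all genes, with Hyou1 at 0.54 and Creld2 at 0.32, both positive. For smooth muscle cultures 6 were called, against 70.4% of all genes (34.9% positive and 35.5% negative), with Manf (1.25 ± 0.13) and Hspa5 (0.74 ± 0.12) positive and Pdia4 (-2.24 ± 0.11), Xbp1 (-1.23 ± 0.15), Herpud1 (-1.16 ± 0.13) and Hsp90b1 (-0.81 ± 0.10) negative. With library size alone Manf was at -0.09 and Hspa5 at -0.60, and 16.6% of all called genes were positive, against 49.6%. Without normoxic replicate 4 in both groups 8 were called.

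A wider list of 61 ER folding and stress-response genes, of which 59 could be tested, was described by role. In hypoxic proliferating cells 26 were higher and 18 lower (65.4% of all genes called), with a median of 0.13, and 23 and 21 with library size alone, with a median of 0.05. The 4 tested genes of the PERK branch (Atf4, Trib3, Ppp1r15a and Chac1; Ddit3, which encodes CHOP, was not analysed here) were higher, with Trib3, a pseudokinase induced through ATF4, at 8.91 ± 4.04 CPM (SD, n = 4) normoxic and 66.9 ± 5.15 CPM (n = 3) hypoxic. Ero1l, the oxidase that recharges disulfide isomerases and a known hypoxia-induced gene, went from 48.7 ± 2.08 to 1584 ± 204 CPM, a 32.4-fold rise. Among sensors, Eif2ak3 rose by 0.76 ± 0.12, Atf6 fell by 0.43 ± 0.05 and Ern1 was at 0.11 ± 0.08 and not called. The largest falls were those of Dnajb11, an ER J protein (-1.02 ± 0.07), and Atf6b (-0.87 ± 0.07).

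**Figure D5:**
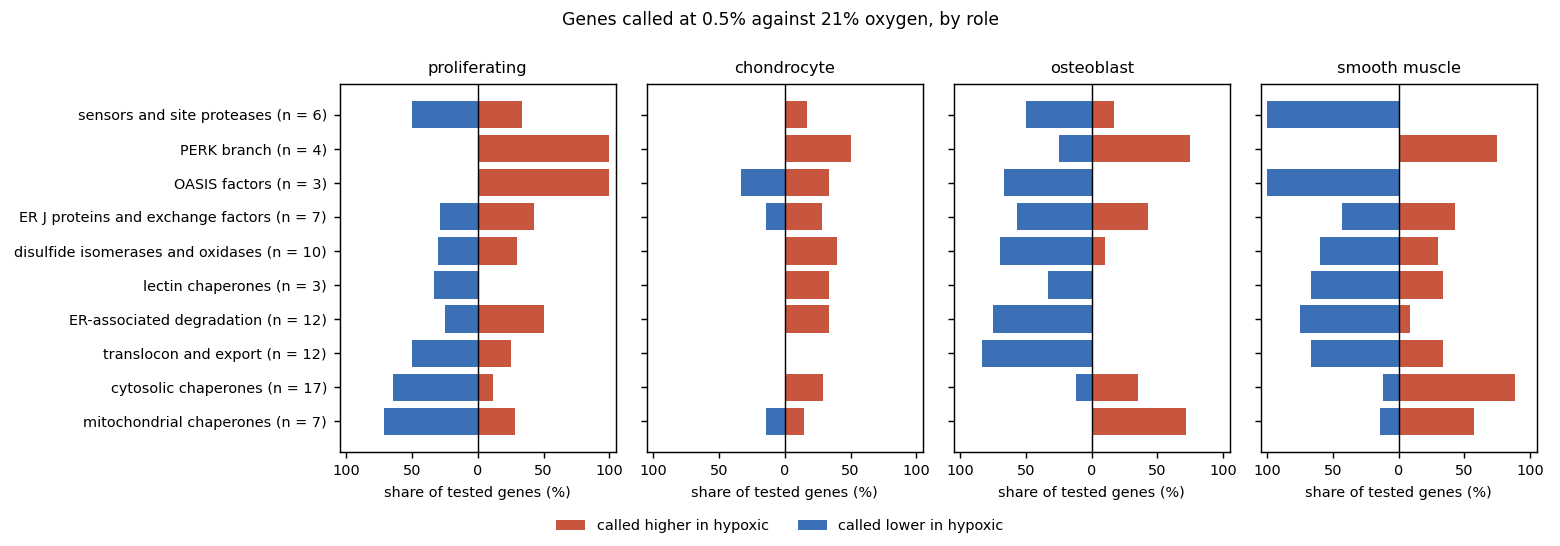
Share of the tested genes of each role that were called higher (right) or lower (left) at 0.5% against 21% O2, by edgeR with an adjusted p under 0.05. In osteoblast cultures 10 of 12 translocon and export genes are called lower, against 27.3% of all genes. In chondrocyte cultures 0 of 12 are, against 11.8% of all genes, and the difference between the cultures was not tested for this role. The 15 of 17 cytosolic chaperones called higher in smooth muscle cultures rest on the scaling: with library size alone 9 of all 24 chaperones of that list are called higher and 11 lower.

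In chondrocyte cultures 16 of 59 were higher and 2 lower (22.2% of all genes called), with 9 and 4 under library size alone. The rises were led by Ero1l (1.84 ± 0.14) and Ppp1r15a (0.77 ± 0.12), the phosphatase subunit that reverses the PERK signal. In osteoblast cultures 37 of 59 were lower and 9 higher (54.3% of all genes called, 27.3% lower and 27% higher), and 40 and 4 with library size alone. Lower there were 10 of 12 translocon and export genes, 9 of 12 degradation genes and 7 of 10 isomerases and oxidases, whereas 3 of 4 PERK-branch genes were higher, Ppp1r15a by 1.75 ± 0.12. Ero1l rose there by 2.83 ± 0.15. The median of the 59 was -0.41, beside -0.03 for all genes. In smooth muscle cultures 37 were lower and 16 higher (75.6% of all genes called; 50 and 7 with library size alone), with Pdia5 at -3.63 ± 0.20 and Creb3l1 at -2.90 ± 0.18 against Ero1l at 5.18 ± 0.10 and Ppp1r15a at 4.32 ± 0.61. Ppp1r15a ranged from 121 to 669 CPM over the 3 hypoxic smooth muscle libraries.

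On differentiation the wider list moved mostly one way in chondrocyte cultures. At 21% O2, 50 of 59 were higher and 4 lower, against 37.7% of all genes higher and 37.2% lower, with a median of 1.00 beside 0.00 for all genes. Library size alone gave 46 and 9, with a median of 0.65. At 0.5% O2, 52 were higher and 3 lower, against 34.9% and 34.6% of all genes, with a median of 0.98, and library size alone gave 46 and 8, with a median of 0.65. The largest rise in both was that of Creb3l1 (OASIS), an ER-bound transcription factor known for its role in bone collagen production, from 1.14 ± 0.58 to 438 ± 49.8 CPM at 21% O2 and from 4.48 ± 0.67 to 416 ± 43.7 CPM at 0.5% O2. Of the 6 sensors and site proteases 3 were higher and 2 lower at 21% O2, with a median of 0.30. Ern1 rose by 1.49 ± 0.07, Eif2ak3 by 1.79 ± 0.11 and Mbtps1 by 0.60 ± 0.05, Atf6 fell by 0.28 ± 0.05 and Mbtps2 by 0.42 ± 0.07, and Atf6b was not called. In osteoblast cultures 42 were higher and 6 lower at 21% O2, against 40.9% and 37.8% of all genes. At 0.5% O2 there were 27 higher and 11 lower, against 36.2% and 35.1% of all genes, and library size alone gave 24 and 22. In smooth muscle cultures at 21% O2, 31 were higher and 15 lower, against 40.8% and 38.9% of all genes, with Atf6 at -1.25 ± 0.05. At 0.5% O2, 21 were higher and 28 lower, against 33.8% and 36.2% of all genes, and library size alone gave 5 and 49.

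The cytosolic and mitochondrial chaperones, 24 genes, served as a comparison list. In all 3 normoxic differentiation cultures they were mostly lower than in proliferating cells: 17 of 24 were lower and 5 higher in chondrocyte (37.2% of all genes lower), 18 and 4 in osteoblast (37.8%) and 19 and 3 in smooth muscle cultures (38.9%). At 0.5% O2 the counts were 12 lower and 7 higher in chondrocyte (34.6% of all genes lower), 15 and 7 in osteoblast (35.1%) and 6 and 11 in smooth muscle cultures (36.2%). The medians in chondrocyte cultures were -0.85 at 21% O2 and -0.22 at 0.5% O2, and with library size alone the hypoxic chondrocyte counts were 17 lower and 5 higher and the hypoxic smooth muscle ones 15 and 7. At low oxygen 16 were lower and 4 higher in proliferating cells, against 65.4% of all genes called (32.3% lower). In chondrocyte cultures 6 were higher and 1 lower, against 22.2% of all genes called, and 17 were not called. In osteoblast cultures 11 were higher and 2 lower, against 54.3% of all genes called (27% higher). In smooth muscle cultures 19 were higher and 3 lower, against 75.6% of all genes called (35.4% higher), led by the Hsp70 genes Hspa1a (6.74) and Hspa1b (3.42), near-identical copies that may share reads, and by Hsp90ab1 (2.89). The hypoxic libraries spread widely, with Hspa1a at 340 ± 237 CPM and Hspa1b at 456 ± 368 CPM (SD, n = 3). With library size alone the counts were 9 higher and 11 lower in smooth muscle and 5 and 5 in osteoblast cultures, so these directions rest on the scaling. The difference between the lists was not tested.

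Across the 28 libraries the 10 genes were not 1 block. Pearson's r of log2 levels between pairs of genes ranged from -0.49 to 0.95 over 45 pairs, with a median of 0.47, and 5 pairs were negative, the lowest being Dnajb9 with Sdf2l1. Without the hypoxic smooth muscle libraries the median was 0.54 and 3 pairs were negative. The genes closest to the mean profile of the set were Calr (calreticulin, r = 0.92), Golt1b (0.92), Srpr (0.91), Ssr1 (0.91) and Tmed9 (0.90), none of them a member. Without the hypoxic smooth muscle libraries they were Tmed9 (0.93), Timm22 (0.93), Calr (0.92), Magt1 (0.92) and Slc39a7 (0.92), and the member Hspa5 was at 0.92. The libraries share groups and scaling, so these values are descriptions and carry no p.

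The authors' deposited tables give a log2 fold change for each of the 10 genes in each of the 10 pairwise comparisons. All 100 values had the same sign as those above, and the largest difference from the authors' deposited table was 0.0878 on the log2 scale.

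On the GENCODE M21 annotation of GRCm38, 5 of the 10 genes overlap another gene: Hsp90b1 (chr10:86690209-86705509), Dnajb9 (chr12:44205559-44210326), Pdia4 (chr6:47796141-47813430), Herpud1 (chr8:94386438-94395377) and Manf (chr9:106838312-106891979). Manf overlaps Rbm15b on its own strand and Dcaf1 on the other, among others. The library kit keeps strand, but its use in counting is not given in the sources used here, so reads of overlapping genes may be split uncertainly. Hspa5 (chr2:34771970-34777547), Hyou1 (chr9:44379490-44392369), Sdf2l1 (chr16:17130138-17132383), Xbp1 (chr11:5520659-5525893) and Creld2 (chr15:88819646-88826683) overlap no annotated gene.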

How the data were processed

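O9-1 cells were measured by RNA sequencing in 28 libraries. The authors deposited whole-number read counts for 54429 genes, and 10 tables that list for each gene a log2 fold change with its p-value, per the file headers. The submitters' processing notes name HISAT2 2.0.5, StringTie 1.3.3b, featureCounts 1.5.0-p3 and mm10, without roles; the annotation and use of strand are not given in the sources used here. The 70 columns of normalised single-library values in those tables were not used.

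Counts were tested with edgeR 4.0.16 (R 4.3.3): TMM scaling, filterByExpr (minimum count 10, total 15), robust quasi-likelihood F test, each pair of groups fitted alone and each interaction on its 4 groups, Benjamini-Hochberg adjustment over all genes tested. Levels are CPM scaled over all 28 libraries. SE is the log2 fold change over the root of F. Correlations used log2(CPM + 0.5). Samples were grouped by the labels. Alternatives were other scalings, other filters, DESeq2 1.42.0, limma-voom (limma 3.58.1), 1 fit of all libraries, a replicate block, leaving out each library, and, chosen after seeing the data, replicates 1 to 3 only. The procedure was tested on simulated counts. No 2 libraries were alike within sampling noise. Promoter windows are from RefSeq and gene spans from GENCODE M21.

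The members and gene lists were chosen with earlier results of these data known. Besides the 10 members, named genes were the sensors Ern1, Eif2ak3 and Atf6 and, in each pairwise comparison, the 2 largest called rises and falls of the wider list without overlap between libraries, and the 5 genes closest in profile; examples from the comparison list were its largest changes, and further genes named beside counts were chosen after their values were seen. The 2 untested genes of the wider list were too low or not analysed here.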

Additional observations from a re-analysis of the deposited data

Results flagged for a closer look

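In 11 of 40 sets of 4 normoxic libraries, 1 library lay farther from the others than the 95% limit of Dixon's test (a gap of 0.829 of the range). Chance flags about 5% of independent sets, but the 10 genes were read in the same 4 groups of libraries and are correlated, so 11 of 40 cannot be set against that share. All 11 were replicate 4, and 7 of them were 1 osteoblast library. In osteoblast cultures replicate 4 passed this limit as the highest library in 7 genes: Hspa5 (1433 CPM), Hsp90b1 (1449), Manf (179.0), Hyou1 (195), Pdia4 (366), Xbp1 (141) and Creld2 (71.3). In proliferating cells it passed the limit as the highest for Hspa5 (791 CPM) and Creld2 (34.0), and in smooth muscle cultures for Hspa5 (572 CPM). In chondrocyte cultures it passed the limit as the lowest for Pdia4 (226 CPM).

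The oxygen difference differed from that in proliferating cells, by the edgeR interaction test, in 6 of 10 genes for chondrocyte, 5 for osteoblast and 6 for smooth muscle cultures. Of all genes, 43.5%, 54.2% and 70.4% were called in these 3 tests, so nothing is read from the counts of these genes. For chondrocyte cultures the log2 values were 1.52 for Hyou1, 1.12 for Creld2, 1.06 for Manf, -0.75 for Xbp1, -0.49 for Hsp90b1 and -0.37 for Herpud1. For osteoblast cultures they were -1.66 for Sdf2l1, -1.29 for Xbp1, -1.27 for Hspa5, -1.06 for Hsp90b1 and -0.64 for Herpud1. For smooth muscle cultures, whose hypoxic libraries stood apart, they were 1.25 for Manf, 0.74 for Hspa5, -2.24 for Pdia4, -1.23 for Xbp1, -1.16 for Herpud1 and -0.81 for Hsp90b1; those of Manf and Hspa5 changed sign with library size alone.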

How the results depend on the processing

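The number of the 10 genes called moved by more than 1.5 times in 5 of 13 comparisons. Leaving out 1 library gave 2 to 6 for oxygen in chondrocyte cultures, 6 to 9 for normoxic chondrocyte against proliferating cells and 5 to 8 for the osteoblast interaction. With replicates 1 to 3 only, chosen after seeing the data, 10 were called for normoxic osteoblast against proliferating cells and 9 for the osteoblast interaction. With 1 fit of all libraries 5 were called for hypoxic osteoblast against proliferating cells. The summed level varied 2.16-fold over the groups, and 3.57-fold with library size alone. The replicate numbers did not pair the samples: residual correlations of same-numbered libraries were -0.125 to 0.107, and in 0 of 10 comparisons were all pairs above 0.1. The replicate block called 9 in the osteoblast interaction and moved no other count by over 1.5 times.

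The log2 values that changed sign were as follows, and the cause was not tested. With library size alone they were, for oxygen in smooth muscle cultures, -0.47 for Hspa5, -1.36 for Hsp90b1, -0.37 for Dnajb9, -0.89 for Sdf2l1 and -0.94 for Manf. For the smooth muscle interaction they were -0.60 for Hspa5, -1.11 for Hyou1, -0.74 for Dnajb9, -0.80 for Sdf2l1, -1.28 for Creld2 and -0.089 for Manf, and for hypoxic smooth muscle against proliferating cells -0.99 for Hspa5 and -0.36 for Manf. That scaling also gave -0.045 for Sdf2l1 with oxygen in chondrocyte and -0.14 for Herpud1 with oxygen in osteoblast cultures. It gave -0.14 for Hsp90b1 and -0.017 for Manf in normoxic chondrocyte against proliferating cells, -0.015 for Hyou1 in normoxic osteoblast against proliferating cells and -0.0016 for Pdia4 in the chondrocyte interaction. With replicates 1 to 3 only, Sdf2l1 was at 0.076 with oxygen in proliferating cells, -0.071 in chondrocyte cultures and -0.15 in the chondrocyte interaction. Pdia4 was then at 0.00068 with oxygen in osteoblast cultures and -0.083 in the chondrocyte interaction, Hsp90b1 at -0.061 and Hyou1 at -0.14 in normoxic osteoblast against proliferating cells, and Creld2 at 0.32 in the osteoblast interaction. The replicate block gave 0.081, -0.063 and -0.14 for Sdf2l1 in the same 3 comparisons, -0.084 for Pdia4 in the chondrocyte interaction and 0.315 for Creld2 in the osteoblast interaction. With no filter on low counts, Hsp90b1 was at -0.11 with oxygen in smooth muscle cultures, Herpud1 at -0.0067 in normoxic smooth muscle against proliferating cells, and Creld2 at 0.0022 in the osteoblast and -0.018 in the smooth muscle interaction. In 1 fit of all libraries the same values were -0.052 for Hsp90b1, -0.043 for Herpud1 and 0.017 for Creld2 in the osteoblast interaction. With at least 10 counts in every library the values were 0.0069 for Sdf2l1 with oxygen in proliferating cells, -0.012 for Hsp90b1 with oxygen in smooth muscle cultures and -0.024 for Pdia4 in the chondrocyte interaction. DESeq2's size factors in edgeR gave -0.0314 and its Wald test -0.0315 for Pdia4 in the chondrocyte interaction. Limma-voom gave 0.014 for Sdf2l1 with oxygen in proliferating cells and 0.076 for Creld2 in the osteoblast interaction.

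Leaving out 1 library changed the sign of 14 values, none of which was called with all libraries. With oxygen, Sdf2l1 ranged from -0.10 to 0.076 in proliferating cells and from -0.071 to 0.15 in chondrocyte cultures, Pdia4 from -0.26 to 0.00068 and Herpud1 from -0.025 to 0.081 in osteoblast cultures, and Hsp90b1 from -0.062 to 0.057 in smooth muscle cultures. In normoxic osteoblast against proliferating cells the ranges were -0.072 to 0.23 for Hsp90b1, -0.17 to 0.20 for Hyou1 and -0.42 to 0.066 for Sdf2l1. Herpud1 ranged from -0.051 to 0.065 in normoxic smooth muscle against proliferating cells. In the chondrocyte interaction Dnajb9 ranged from -0.14 to 0.028, Sdf2l1 from -0.046 to 0.17 and Pdia4 from -0.068 to 0.054. Creld2 ranged from -0.12 to 0.40 in the osteoblast and from -0.18 to 0.28 in the smooth muscle interaction. Leaving out the mitochondrially encoded genes changed the direction or call of 0 of 130 values. The 3 libraries per hypoxic group limit the precision.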
